A study of Mus musculus with 34 samples.

Results

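Chemokines and chemokine receptors were examined in epididymal fat of mice kept on a high-fat diet over several generations. A gene was taken when its single annotated symbol began with Ccl, Cxcl, Ccr, Cxcr or Ackr followed by a number, or was Xcl1, Xcr1, Cx3cl1 or Cx3cr1. The arrays carried 55 such genes, 34 ligands and 21 receptors, of 18617 genes with a symbol and 22879 features in all. Total RNA of mouse epididymal fat was hybridised in pairs of groups to 34 two-colour arrays, each pairing with the dyes swapped. HF0 mice were the offspring of STD mice and received a high-fat diet. HF1 mice were offspring of HF0, HF3 of HF2 (not analysed here) and HF4 of HF3, all on the high-fat diet. The REV groups were fed a normal diet: HF1-REV mice were offspring of HF0, HF3-REV mice of HF2 and HF4-REV mice of HF3. STD mice received a normal diet. Experiment 1 held 12 arrays with every pairing of HF0, HF3, HF4 and STD. Experiment 2 held 22 arrays with every pairing of HF0, HF1, HF3 and HF4, HF0 with STD on 4 arrays, and HF1, HF3 and HF4 each with its REV group. The labels give no strain, age or number of animals per RNA sample, and they do not say whether the pairings of a group carried the same RNA. The tissue is a mixture of cells, so fewer cells of a type and less RNA per cell cannot be told apart in any value below.

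Chemokines are small secreted proteins that draw leukocytes along a gradient through receptors of the G protein-coupled class. In obese fat, macrophages, adipocytes and stromal cells release inflammatory CC chemokines such as Ccl2, which attracts monocytes carrying Ccr2, while CXC chemokines such as Cxcl1 and Cxcl2 attract neutrophils through Cxcr2 and Cxcl9, Cxcl10 and Cxcl11 attract activated T cells through Cxcr3. Atypical receptors (Ackr1 to Ackr4) bind chemokines without the usual G protein signal, and several of them remove their ligands from the tissue.

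The neutrophil attractant Cxcl2 and the interferon-induced Cxcl10 carried some of the most discordant ratios described below, and the neutrophil attractant Cxcl1 less discordant ones. The promoters of these 3 genes are shown because each holds known classes of response motif. Ccl3, Ccl12 and Ccl21a also had strongly discordant ratios, and their windows held none of the motifs searched. A link between motifs and discordant ratios was not tested. The windows run from 250 bases before to 50 bases after the RefSeq start (assembly GRCm38.p6), 5′ to 3′ on the gene's strand. They lie at chr5:90890995-90891294 (plus strand) for Cxcl1, chr5:90903649-90903948 (plus strand) for Cxcl2 and chr5:92348840-92349139 (minus strand) for Cxcl10. Capitals mark matches on either strand to GGGNNTTTCC (a form of the kappaB class, bound by NF-kappaB), GAAANNGAAA (the interferon-stimulated response element) or TGANTCA (the AP-1 site). Other spellings of these classes were not searched, so a window without capitals of a class may still hold such a site.
Cxcl1: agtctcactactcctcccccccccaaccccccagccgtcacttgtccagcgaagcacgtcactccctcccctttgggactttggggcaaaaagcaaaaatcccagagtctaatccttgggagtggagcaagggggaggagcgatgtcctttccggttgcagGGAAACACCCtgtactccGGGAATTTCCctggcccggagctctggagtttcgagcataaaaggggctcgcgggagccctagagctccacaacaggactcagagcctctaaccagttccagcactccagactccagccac
Cxcl2: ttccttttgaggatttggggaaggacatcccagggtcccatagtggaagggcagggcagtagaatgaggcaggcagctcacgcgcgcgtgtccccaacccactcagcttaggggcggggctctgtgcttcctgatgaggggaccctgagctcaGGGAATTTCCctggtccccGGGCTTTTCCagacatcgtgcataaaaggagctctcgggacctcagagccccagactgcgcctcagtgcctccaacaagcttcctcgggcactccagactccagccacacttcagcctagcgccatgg
Cxcl10: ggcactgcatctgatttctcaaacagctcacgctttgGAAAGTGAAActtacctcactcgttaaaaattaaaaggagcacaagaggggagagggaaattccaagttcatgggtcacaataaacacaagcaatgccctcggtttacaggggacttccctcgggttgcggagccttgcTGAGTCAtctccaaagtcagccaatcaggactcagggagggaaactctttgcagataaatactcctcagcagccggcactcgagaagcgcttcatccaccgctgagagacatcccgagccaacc
Cxcl1 had kappaB letters beginning at base -89 (minus strand) and base -71 (plus strand), counted from the start, and Cxcl2 at bases -97 and -78 (both on the plus strand). Of all 32851 promoter windows 1.63% held these letters at least once, and 0.0304% more than once. RefSeq windows were found for 42 of the 55 genes, and 5 of the 42 held the letters, in Ccl20, Ccl9, Ccr3, Cxcl1 and Cxcl2. Counted by gene, 1.89% of all 27025 genes with a window held them. Cxcl10 had the interferon-response letters at base -213, which 3.44% of all windows held, and the AP-1 letters at base -74, which 7.81% held. A match describes letters in the window and says nothing of binding.

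All values below are log2 ratios, with the group named first on top. The files give Cy5 and Cy3 log ratios without stating the numerator. They were read as Cy5 over Cy3, so that a positive value would stand for more RNA in the group named first; were Cy3 the numerator, every sign would turn. Turned arrays of a dye swap correlated over all features at r = -0.31 (HF1 with HF1-REV) to 0.57 (HF4 with HF4-REV), and at 0.0955 to 0.824 once an average dye effect had been removed. Two-colour ratios give no level, so the presence of adipocyte markers could not be checked. Markers of male germ cells and of epididymis epithelium differed widely between these samples. Relative to HF0 of the same experiment, the median of 24 germ cell genes was 0.06 in HF1, 2.87 in HF3, 3.70 in HF4, -0.99 in HF1-REV, 0.09 in HF3-REV, -0.13 in HF4-REV and 2.45 in STD of experiment 2. The median of 16 epididymis genes lay between -0.30 and 0.50 in the 6 later groups of experiment 2 and at 4.53 in its STD group. The part that other tissue in the sample played in any chemokine ratio was not tested.

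The chemokine ratios of experiment 1 depended on which partner a group was hybridised with. If pairings measured the same RNA, the ratio of HF3 over HF0 plus that of HF0 over STD should equal the direct ratio of HF3 over STD. In experiment 1 this sum missed the direct ratio by over 1 on the log2 scale for 22 of 55 genes (40%), against 8.65% of all features. Cxcl2 showed the largest gap, at -3.71. Its direct HF0 over STD arrays read -0.82 and -1.55, its HF3 over STD arrays 2.95 and 2.05, and the mean ratio of HF3 over HF0 was -0.04. Both dye orientations therefore had the same sign in each of the pairings with STD, and those signs were opposite.

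The other loops of experiment 1 were open in the same way. The sums missed by over 1 for 16 genes (29.1%, against 6.78% of all features) around HF4, HF0 and STD, for 16 (29.1%, against 3.9%) around HF4, HF3 and STD, and for 11 (20%, against 8.68%) around HF4, HF3 and HF0. The largest gaps in these 3 loops were at Cxcl10 (-3.59), Ccl4 (2.50) and Cxcl10 (3.22). Over the genes the gaps had an SD of 0.793 to 1.10, against 0.447 to 0.677 over all features. In experiment 2 the 4 loops of HF0, HF1, HF3 and HF4 had an SD of 0.273 to 0.349 over the chemokine and receptor genes, against 0.390 to 0.432 over all features, and sums missed by over 1 for at most 2 genes. These were Cxcr1 (1.30 around HF4, HF3 and HF0) and, around HF4, HF3 and HF1, Xcl1 (1.62) and Cxcr1 (1.25).

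**Figure D1:**
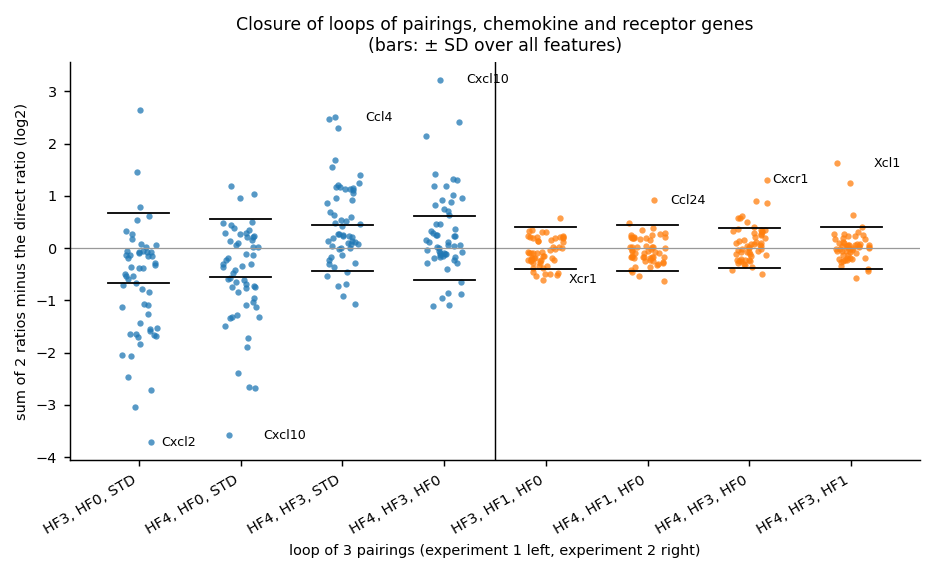
Each point is 1 of the 55 genes; the vertical axis gives the sum of 2 pairing ratios minus the direct ratio (log2) for each loop of 3 pairings, with experiment 1 in blue and experiment 2 in orange, and the black bars mark ± SD over all features. Points reach from -3.71 (Cxcl2) to 3.22 (Cxcl10) in experiment 1, and in experiment 2 they stay between -0.62 and 1.62.

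Many inflammatory ligands were among the genes of the open loops. The HF0 over STD pairing of experiment 1 gave negative ratios for 40 of 55 genes, 6 of them below -1 (10.9%, against 0.704% of all features), and the HF3 over STD pairing gave positive ratios for 38, with 7 above 1 (12.7%, against 0.476%). The median of 11 inflammatory CC ligands was -0.69 in HF0 over STD, 0.77 in HF3 over STD, -0.18 in HF4 over STD and -0.13 in HF3 over HF0. Ccl3 and Ccl4, which attract monocytes and T cells, had pairing means of -1.67 and -1.78 in HF0 over STD and of 1.37 and 1.02 in HF3 over STD. The interferon-induced CXC ligands had medians of -0.89 and 0.83 in the same pairings, and the neutrophil attractants of -0.32 and 0.88. Among receptors Ccr1 read -0.86 and 0.84 and Ccr7 -0.88 and 0.97, whereas Ccr3, which marks eosinophils, read -0.38 and -0.07.

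Marker lists differed between these pairings as well. In HF0 over STD and HF3 over STD of experiment 1 the median of 22 macrophage genes was -0.17 and 0.42, and that of 12 endothelial genes 0.52 and -0.84. The germ cell median was 3.62 in HF3 over HF0, 0.04 in HF0 over STD and -0.06 in HF3 over STD, so that list did not close around these groups either. What lay behind the open loops was not tested. The direct ratios of a pairing are therefore given beside the network estimates, which combine all pairings of a group by least squares.

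**Figure D2:**
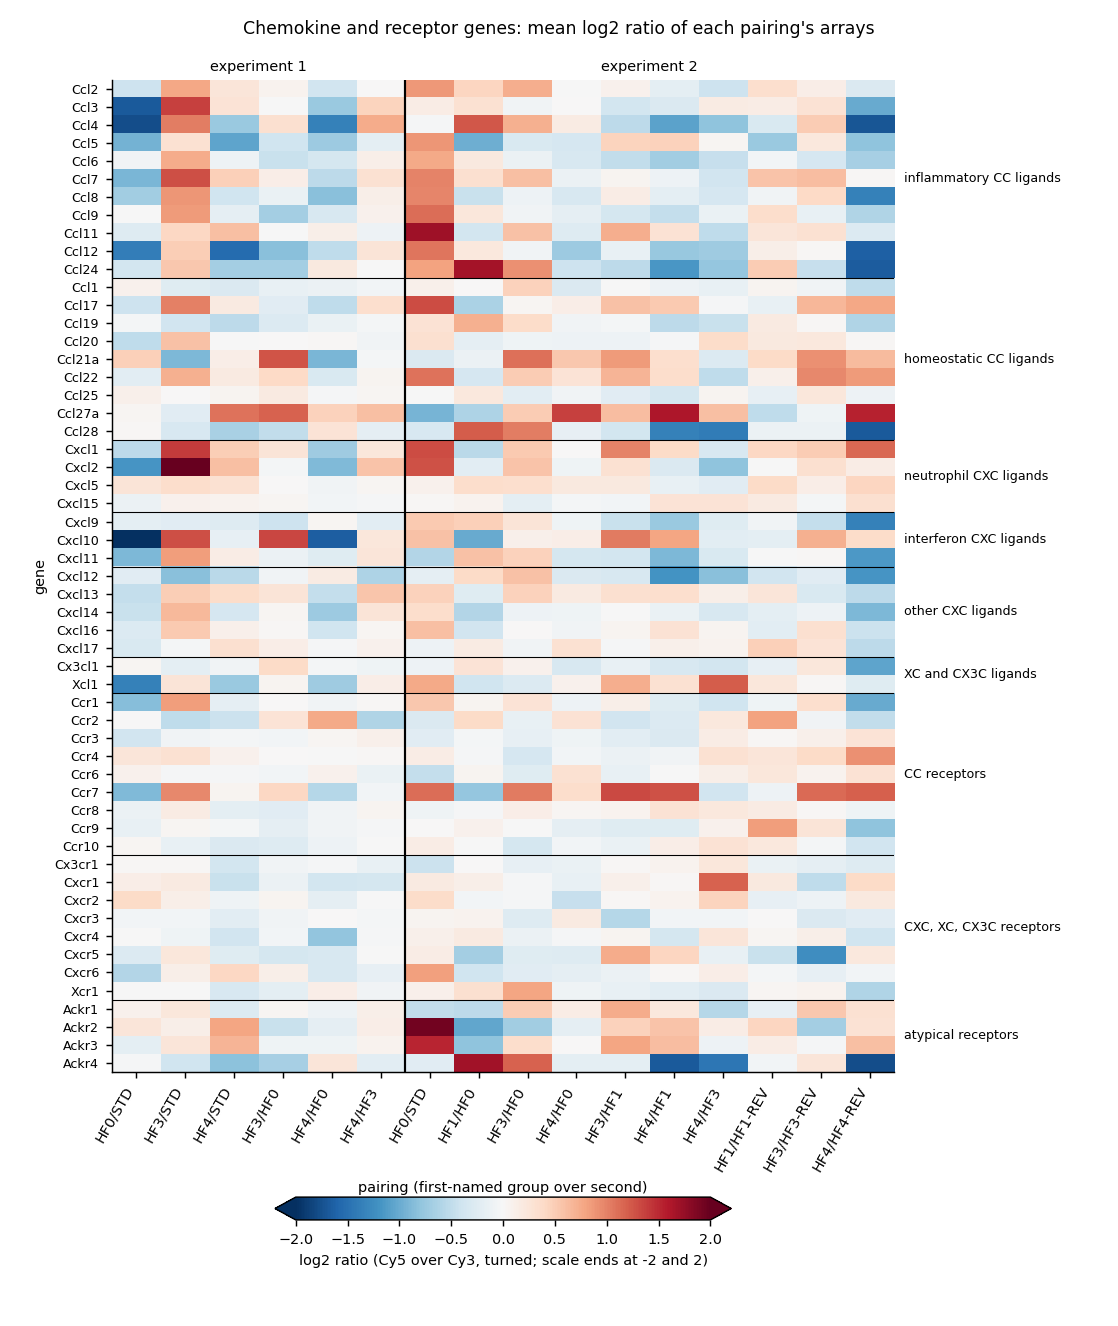
Rows are the 55 genes ordered by role, columns the 16 pairings (experiment 1 left, experiment 2 right), and the colour is the mean log2 ratio with the group named first on top, red for positive and blue for negative, on a scale that ends at -2 and 2. The inflammatory CC ligands are mostly blue in HF0/STD of experiment 1, red in HF3/STD of experiment 1 and in HF0/STD of experiment 2, and blue in HF4/HF4-REV.

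HF0 was set against STD to ask what the high-fat diet does in the generation that first received it. In experiment 2 the direct ratios of 39 of 55 genes were positive, and 10 lay above 1 (18.2%, against 1.68% of all features) and 0 below -1. Those above 1 included the scavenging receptors Ackr2 and Ackr3, the eosinophil attractant Ccl11, the neutrophil attractants Cxcl1 and Cxcl2, and Ccl17 and Ccl22, both ligands of Ccr4. In experiment 1 none of the 55 lay above 1. No gene passed an adjusted p of 0.05 in the network estimate over both experiments (limma), and neither did any of the 22879 features (0%). At an unadjusted p of 0.05, 9 of 55 genes passed (16.4%, against 7.36% of all features). The median over the genes was 0.095 (-0.016 in the network of experiment 1, -0.20 on its direct arrays, 0.18 in experiment 2, and -0.023 without the STD value of experiment 2), and 36 of 55 were positive (65.5%, against 51.3%).

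The individual arrays show how far each gene held. Ackr2, which takes up and degrades inflammatory CC chemokines, read 0.25 and 0.25 on the HF0 with STD arrays of experiment 1 and 1.60, 2.00, 2.07 and 2.04 on those of experiment 2. Its 6 arrays were all positive and those of experiment 2 all lay above those of experiment 1. The network estimate was 1.22 ± 0.33 (SE, n = 2 experiments, adjusted p = 0.638). Ccl11 read 0.05 and -0.56 in experiment 1 and 1.66, 1.58, 1.69 and 1.84 in experiment 2, with a network estimate of 0.90 ± 0.41 (SE). The arrays of experiment 2 were close to each other and did not overlap with those of experiment 1. Cxcl2 read -0.82 and -1.55 in experiment 1 and 2.05, 0.25, 1.83 and 0.98 in experiment 2. Its network estimate was 0.85 ± 0.22 (SE, adjusted p = 0.632), a positive value although both direct arrays of experiment 1 were negative.

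The most negative genes were no more uniform. Ccl27a, a ligand of Ccr10 known from skin, read 0.22 and -0.16 in experiment 1 and -1.24, -1.09, -0.68 and -0.70 in experiment 2 (network -0.55 ± 0.21 SE). All arrays of experiment 2 were negative and the pair of experiment 1 had opposite signs. Ccr2, the receptor of Ccl2 on monocytes, read -0.20 and 0.20 in experiment 1 and -1.25, -0.69, 0.33 and 0.43 in experiment 2 (network -0.39 ± 0.14 SE), so its arrays fell on both sides of 0 in each experiment. Cxcl11, an interferon-induced ligand of Cxcr3, read -0.55 and -1.24 in experiment 1 and -0.58, -0.77, -0.70 and -0.32 in experiment 2 (network -0.35 ± 0.20 SE). Cxcl11 was negative on all 6 direct arrays.

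**Figure D3:**
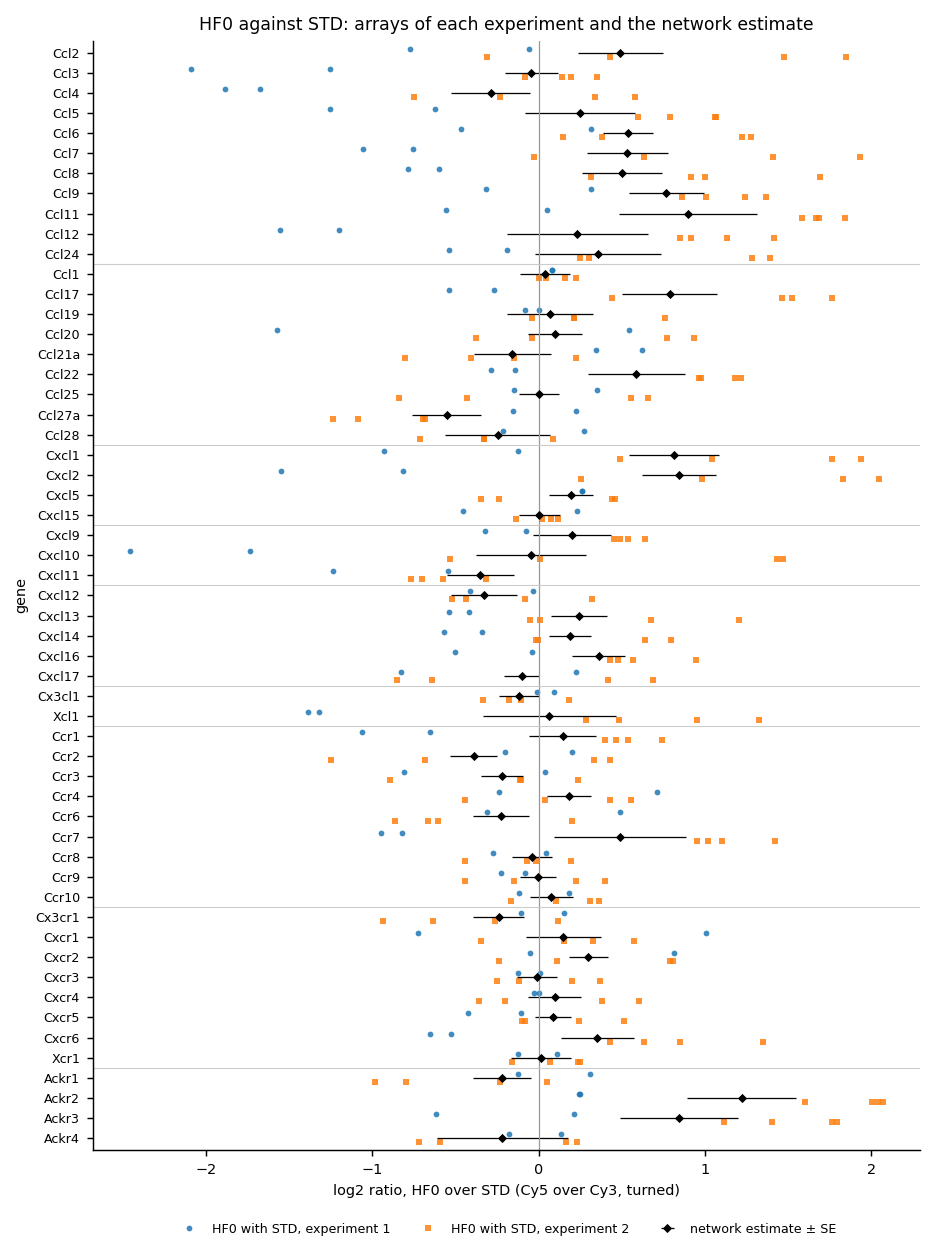
For each of the 55 genes the horizontal axis gives the log2 ratio of HF0 over STD on the arrays of experiment 1 (blue points) and experiment 2 (orange squares), with the network estimate ± SE as a black diamond. Ackr2 is positive on every array, Cxcl11 negative on every array, and Ccl12, Cxcl1, Cxcl2 and Ccr7 lie left of 0 in experiment 1 and right of 0 in experiment 2.

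Among the inflammatory CC ligands 9 of 11 network estimates were positive, with a median of 0.49, and the 4 neutrophil-attracting ligands were all positive, with a median of 0.50. The direct medians of the CC group were -0.69 in experiment 1 and 0.88 in experiment 2. Ccl12, a mouse ligand of Ccr2, read -1.20 and -1.56 in experiment 1 and 0.85, 0.91, 1.41 and 1.13 in experiment 2. Ccr7, which guides dendritic cells and naive T cells to lymph nodes, read -0.95 and -0.82 against 0.95, 1.02, 1.42 and 1.10 in the same order of experiments. For both genes every array of an experiment had that experiment's sign. The CC receptors had a median of -0.0037 (-0.39 to 0.49) and the CXC, XC and CX3C receptors of 0.09 (-0.24 to 0.35). Homeostatic CC ligands centred on 0.04, interferon-induced ligands on -0.05 and the other CXC ligands on 0.19, and the atypical receptors on 0.31.

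Ligands and their receptors were compared as pairs. Ccl2 was at 0.49 ± 0.26 (SE) in the network of HF0 against STD, and its receptor Ccr2 at -0.39. Cxcl1 was at 0.81 ± 0.27 with Cxcr2 at 0.30 ± 0.12, and Ccl19 at 0.07 with Ccr7 at 0.49. Cxcl12, which retains leukocytes through Cxcr4, was at -0.33 ± 0.20 and Cxcr4 at 0.09. Cx3cl1, the membrane-bound ligand of patrolling monocytes, was at -0.12 and Cx3cr1 at -0.24, and the B cell attractant Cxcl13 was at 0.24 with Cxcr5 at 0.09. Ccl5, which attracts T cells, was at 0.25 ± 0.33. None of these passed the adjusted threshold. The direct arrays of experiment 1 had the opposite sign to the network for Ccl2 (-0.42), Cxcl1 (-0.53), Ccl5 (-0.94), Ccl19 (-0.04) and Ccr7 (-0.88). The same held for Cxcl13 (-0.48), Cxcr5 (-0.27), Cxcr4 (-0.01), Cx3cl1 (0.04) and Cx3cr1 (0.02). Cxcr2 (0.38), Cxcl12 (-0.22) and Ccr2 (-0.00055) had the sign of the network there. Without the STD value of experiment 2 the estimates of Ccl5 (-0.35), Ccl19 (-0.31), Ccr7 (-0.27), Cxcr4 (-0.02) and Cxcl13 (-0.0105) were negative.

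Several marker lists, macrophages among them, changed sign between the 2 experiments as the inflammatory ligands did. All 22 macrophage genes had positive network estimates in HF0 against STD (median 0.50), and their direct median was -0.17 in experiment 1 and 0.89 in experiment 2. The T cell list had direct medians of -0.48 and 0.60, mast cells and eosinophils of -0.23 and 0.52, and dendritic cells of -0.28 and 0.22. Endothelial genes went the other way, at 0.52 and -0.91. Adipocyte genes had a network median of -0.59, epididymis genes of -2.96 and germ cell genes of -1.75. The part of any of these in the chemokine ratios was not tested. Of 32 measured genes of chemokine signalling 26 were positive and 6 negative (median 0.11), from Rgs1, a regulator of G protein signalling, at 1.06 to the G protein subunit gene Gnai2 at -0.42. The 25 measured inducers of chemokine transcription were split 14 to 11 around a median of 0.17, with the cytokine Il6 highest at 1.03 and the interferon regulator Irf7 lowest at -0.86. The 17 measured chemoattractant genes outside the family names had 10 positive and 7 negative estimates, between Pf4 (0.74) and Mif (-0.36). No gene of these 3 lists passed the adjusted threshold.

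Against STD, the later high-fat generations HF3 and HF4 shared the STD samples and were placed by the same network, so that their agreement with HF0 is not independent. In HF3 against STD no member and no feature was called (0%), and at an unadjusted p of 0.05 13 of 55 genes passed, all with positive estimates (23.6%, against 7.47% of all features in either direction and 4.14% in the positive one). The median was 0.15 (0.49 in experiment 2). Cxcl2 was at 1.36 ± 0.22 (SE, experiments at 0.95 and 1.76, adjusted p = 0.626), Cxcl1 at 1.23 ± 0.27 and Ccl11 at 1.23 ± 0.41. All 11 inflammatory CC ligands had positive estimates here, with a median of 0.48 (0.18 in the network of experiment 1, 1.04 in experiment 2). Experiment 2 had no array of HF3 with STD, so its values reached STD only through the pairing of HF0 with STD. Within the network of experiment 1, Ccl4, Ccl5, Ccl12 and Ccl24 were lower in HF3 than in STD. The direct HF3 over STD arrays of experiment 1 gave these ligands a median of 0.77 over all 11. Of the macrophage genes 20 of 22 were positive (median 0.40), all 16 epididymis genes were negative (median -1.90) and 23 of 24 germ cell genes positive (median 0.47), and the part of these in the chemokine ratios was not tested. Lowest were Cx3cr1 (-0.32 ± 0.15), Ccr3 (-0.30 ± 0.13) and Ccr6 (-0.28 ± 0.17), receptors found on monocytes, eosinophils and lymphocytes.

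In HF4 against STD 100 features passed (0.437%) and no member did. Ackr2 was highest at 1.03 ± 0.33 (SE), followed by Ccl11 at 0.95 ± 0.41 and Ackr3, which scavenges Cxcl12, at 0.94 ± 0.36. Cxcl12 was lowest at -0.62 ± 0.20 (adjusted p = 0.236), before the mucosal ligand Ccl28 and Ackr4, which takes up Ccl19 and Ccl21, both at -0.45. The direct arrays of HF4 with STD, in experiment 1, gave 22 positive and 33 negative genes (median -0.079), with Ccl12 lowest at -1.53 and Ccl27a highest at 1.09. The homeostatic ligands centred near 0 (median -0.01), the inflammatory CC ligands on 0.19 and the neutrophil attractants on 0.54. All 24 germ cell genes were positive and 4 of them called (median 1.64), 15 of 16 epididymis genes were negative (median -2.09) and 17 of 22 macrophage genes positive (median 0.13). Their part in the chemokine ratios was not tested.

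Within the high-fat line, Ccl27a was the only member called between generations (limma). In HF4 against HF0, 1 of 55 genes was called (1.82%, against 4.21% of all features), and in HF3 against HF0 none was (0% of all features, and 0 genes at an unadjusted p of 0.05, against 7.8% of features). Ccl27a was the gene called in HF4 against HF0, at 1.08 ± 0.21 (SE, 95% interval 0.57 to 1.58, adjusted p = 0.0459), with 0.95 in experiment 1 and 1.21 in experiment 2. It was also the member called in HF4 against HF1, at 1.60 ± 0.27 (SE, adjusted p = 0.0404, 2.81% of all features called). Relative to HF0 the group values of Ccl27a in experiment 2 were -0.40 in HF1, 0.45 in HF3 and 1.21 in HF4, then 0.11 in HF1-REV, 0.53 in HF3-REV, -0.32 in HF4-REV and 0.93 in STD. HF4 thus had the highest value and HF1 the lowest.

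The germ cell median of experiment 2 had the order of Ccl27a in 3 of these groups, at 3.70 in HF4, 2.87 in HF3 and 0.06 in HF1. The REV groups differed. The germ cell median was lowest in HF1-REV (-0.99), where Ccl27a was at 0.11, above HF1. In HF3-REV the germ cell median was 0.09 and Ccl27a 0.53, above HF3. In HF4 against HF0 20 of 24 germ cell genes were called, all positive, with a median of 3.39. The part of such cells in the Ccl27a ratio was not tested. Ccl27a has a near-identical copy, Ccl27b, and lies next to Il11ra1, so the probe's signal cannot be assigned to 1 of these genes with certainty. The Ccl27a call in HF4 against HF0 was lost under quantile normalization (0.85, adjusted p = 0.0608) and without any 1 of 10 arrays, where the adjusted p lay between 0.0528 and 0.104. These were both arrays of HF3 with STD, both of HF3 with HF0 and both of HF4 with HF3 in experiment 1, and in experiment 2 the replicate 2 arrays of HF4 with HF0 and of HF3 with HF0 and replicates 3 and 4 of HF0 with STD. In HF4 against HF1 the Ccl27a call was lost under quantile normalization (adjusted p = 0.0518), without either experiment 1 array of HF3 with HF0 or of HF3 with STD, and without replicate 4 of HF0 with STD in experiment 2 (adjusted p of 0.0511 to 0.087).

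Ackr4, Ccl28, Ccl24 and Ccl4 had a different order of groups. Relative to HF0 in experiment 2, Ackr4 was at 1.55 in HF1, 1.26 in HF3 and -0.17 in HF4, with 1.61 in HF1-REV, 1.02 in HF3-REV, 1.61 in HF4-REV and 0.23 in STD. Ccl28 followed at 1.25, 1.03 and -0.21 in HF1, HF3 and HF4, then 1.37, 1.14 and 1.46 in their REV groups and 0.32 in STD. In both genes HF0, HF4 and STD formed the low groups and the other 5 groups the high ones. Experiment 1 gave another picture for HF3, with Ackr4 at -0.31 in HF3 and -0.30 in HF4. The fibroblast and mesothelium list had a median of 0.44 in HF1, 0.55 in HF3 and -0.06 in HF4, with 0.60, 0.61 and 0.39 in the REV groups and -0.44 in STD of experiment 2, and its part in these ratios was not tested.

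In HF1 against HF0 no member was called (0%), with Ccl24, which draws eosinophils, at 1.36 ± 0.48 (SE), Ackr4 at 1.33 ± 0.50 and Ccl4 at 1.22 ± 0.30 as the most positive. Ackr2 and Cxcr5, both at -0.74, and Ccl5 (-0.70) were the most negative. HF3 against HF0 had Ccr7 (0.69 ± 0.40), Cxcl10 (0.60 ± 0.33) and Ccl4 (0.56 ± 0.24) at the top and Ackr2 (-0.45), Ccr10 (-0.25) and Ccl5 (-0.20) at the bottom. Outside Ccl27a, HF4 against HF0 ranged between Ccr7 (0.25) and Ccl12 (-0.56), followed by Cxcl13 at the upper end and Ccl5 and Ccl8 at the lower. HF4 against HF3 had no call (0%). Ccl27a was highest there at 0.61 ± 0.21, before Ackr2 (0.27) and Ccr10 (0.14), and Ackr4 (-0.71 ± 0.39), Ccl28 (-0.61) and Ccl4 (-0.58) were lowest. The Ackr4 value was 0.01 in experiment 1 and -1.43 in experiment 2.

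The later generations were also set against HF1. In HF3 against HF1 (0% called) Ccr7 was at 1.31 ± 0.51 (SE), Cxcl10 at 1.22 ± 0.42 and Ccl27a at 0.99 ± 0.27, and Ccl24 (-0.98), Ackr4 (-0.86) and Ccl28 (-0.67) were lowest. In HF4 against HF1 Ackr4 was at -1.57 ± 0.50 (adjusted p = 0.2), Ccl24 at -1.47 ± 0.48 and Ccl28 at -1.28 ± 0.40, while Ccr7 (0.87) and Cxcl10 (0.64) followed Ccl27a. With each pairing as a unit, a fit added after the open loops were seen, 8 genes were called in HF4 against HF1 (14.5%, against 14.4% of all features). These were Ackr4 (-1.51), Ccl24 (-1.34), Ccl28 (-1.25), Ccl27a, Ccl6, Cxcl12, Cxcl9 and Cxcr5. That fit took the 16 pairings of both experiments as independent, with no block (residual degrees of freedom 9). Pairings of a group may carry the same RNA, so its p-values may be too small wherever it is cited.

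**Figure D4:**
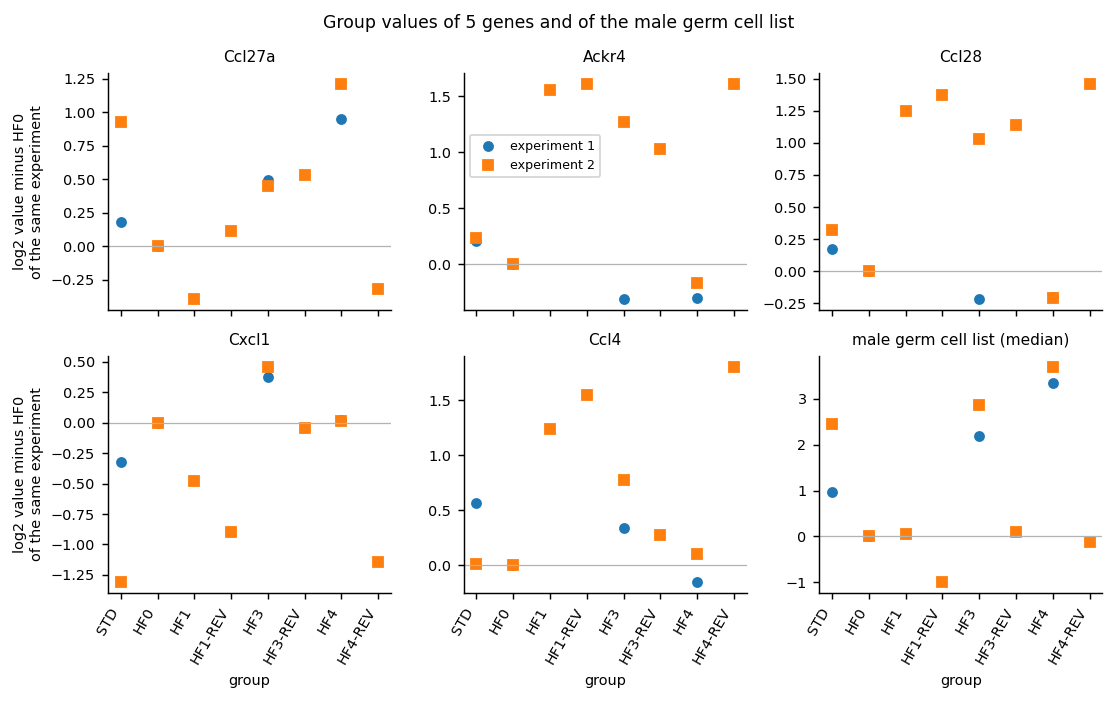
The vertical axes give the log2 group value minus that of HF0 in the same experiment for Ccl27a, Ackr4, Ccl28, Cxcl1 and Ccl4, and the median of the male germ cell list; blue circles are experiment 1 and orange squares experiment 2, with no error bars since each group has 1 value per experiment. Ccl27a and the germ cell median are highest in HF4, whereas Ackr4 and Ccl28 are low in HF0, HF4 and STD and high in HF1 and the REV groups of experiment 2.

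The REV groups compared a high-fat with a normal diet in mice of the same parental generation. In HF4 against HF4-REV 10 of 55 genes were called (18.2%, against 11.2% of all features). The negative calls numbered 8 (14.5%, against 3.8%) and the positive ones 2 (3.64%, against 7.35%). The median over the genes was -0.39, against 0.028 over all features, and 26 genes lay below -0.5 (47.3%, against 14.5%). Each group had 1 group value in experiment 2, and HF4 entered as its average over both experiments, so the test assumed that HF4-REV varied like the other groups. The labels give a day for each array, and every pairing with a REV group fell on the same day of experiment 2, so the direct arrays of these pairings are also their within-day values.

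Inflammatory CC ligands led the negative calls. Ccl4 read -1.88 and -1.54 on the 2 arrays of HF4 with HF4-REV and was at -1.82 ± 0.30 in the network (SE, adjusted p = 0.0228). Ccl3 read -1.19 and -0.82 (network -1.05 ± 0.20, adjusted p = 0.0301). Ccl8, which in mice acts through Ccr8, read -1.39 and -1.29 (network -1.46 ± 0.31, adjusted p = 0.0376). Both arrays of each of these genes were negative. With each pairing as a unit the SE was wider, at 0.72 for Ccl4, 0.66 for Ccl3 and 0.45 for Ccl8. All 11 inflammatory CC ligands had negative estimates, with a median of -1.05, and 3 of them were called. The calls of Ccl4, Ccl3 and Ccl8 were lost after scale normalization (adjusted p of 0.0602, 0.118 and 0.0687 in this order), after quantile normalization (0.0576, 0.116 and 0.0737) and with each pairing as a unit (0.137, 0.351 and 0.0651). They were also lost without single arrays, Ccl4 without replicate 2 of HF3 with STD, Ccl3 without either array of HF4 with HF0 in experiment 1, and Ccl8 without either array of HF3 with STD or without replicate 1 of HF4 with HF4-REV (adjusted p of 0.0504 to 0.0623). Ccl12 read -1.55 and -1.71 and Ccl24 -1.29 and -2.05, with estimates of -1.73 ± 0.54 (adjusted p = 0.0902) and -1.71 ± 0.48 (adjusted p = 0.0707) that missed the threshold.

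Ligands of other classes were called negative in HF4 against HF4-REV too. Cxcl9, which attracts activated T cells, read -1.53 and -1.17 (network -1.41 ± 0.30 SE, adjusted p = 0.0374). Cxcl12 read -1.53 and -0.83 (-1.08 ± 0.25, adjusted p = 0.0462) and Cxcl14 -1.24 and -0.55 (-0.93 ± 0.16, adjusted p = 0.0252). After scale normalization the calls of Cxcl9, Cxcl12 and Cxcl14 were lost (adjusted p of 0.0694, 0.103 and 0.0504). They were also lost after quantile normalization (0.0815, 0.12 and 0.0719), and that of Cxcl14 with each pairing as a unit (0.111). The Cxcl12 call was lost as well without some single arrays of other pairings (adjusted p of 0.0535 to 0.0741). Without replicate 1 of HF4 with HF4-REV, which leaves 1 array of that pairing, the calls of Cxcl9, Cxcl12 and Cxcl14 were lost too. Their estimates were then -1.04, -0.86 and -0.58. Cx3cl1 read -0.42 and -1.69 (-0.96 ± 0.16, adjusted p = 0.022), a spread between its arrays wider than the estimate itself. Its call was lost after quantile normalization (adjusted p = 0.0533). All 5 of the other CXC ligands, the group of Cxcl12 and Cxcl14, were negative, with a median of -0.59. Cxcl11 read -1.13 and -1.17 and Cxcl10, of the same neighbouring genes, had a positive estimate of 0.12. Ackr4 (-0.83 and -2.72) and Ccl28 (-2.07 and -1.28) were negative on both arrays and not called.

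The neutrophil attractants stood on the other side. Their 4 estimates were positive (median 0.35), led by Cxcl1 at 1.04 ± 0.35 (SE, adjusted p = 0.101), whose arrays read 2.11 and 0.19. Ccl27a read 1.33 and 1.74 and was called at 1.52 ± 0.27 (adjusted p = 0.0251). Ccr4, a receptor of helper T cells, was called at 0.89 ± 0.17 (adjusted p = 0.0297) with arrays at 1.60 and 0.22. Ccr9, the receptor of Ccl25, read -0.49 and -1.11 and was the negative call among receptors (-0.79 ± 0.14, adjusted p = 0.0245). The calls of Ccr4 and Ccr9 were lost after scale normalization (adjusted p of 0.0594 and 0.05915). Quantile normalization lost those of Ccl27a, Ccr4 and Ccr9 (0.0814, 0.139 and 0.0807). Ccr7 read 1.21 and 1.19 with an estimate of 0.92 ± 0.51. The other receptors had no call, with CC receptors split into 4 positive and 5 negative, the CXC, XC and CX3C receptors into 3 and 5, and the atypical receptors into 3 and 1.

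**Figure D5:**
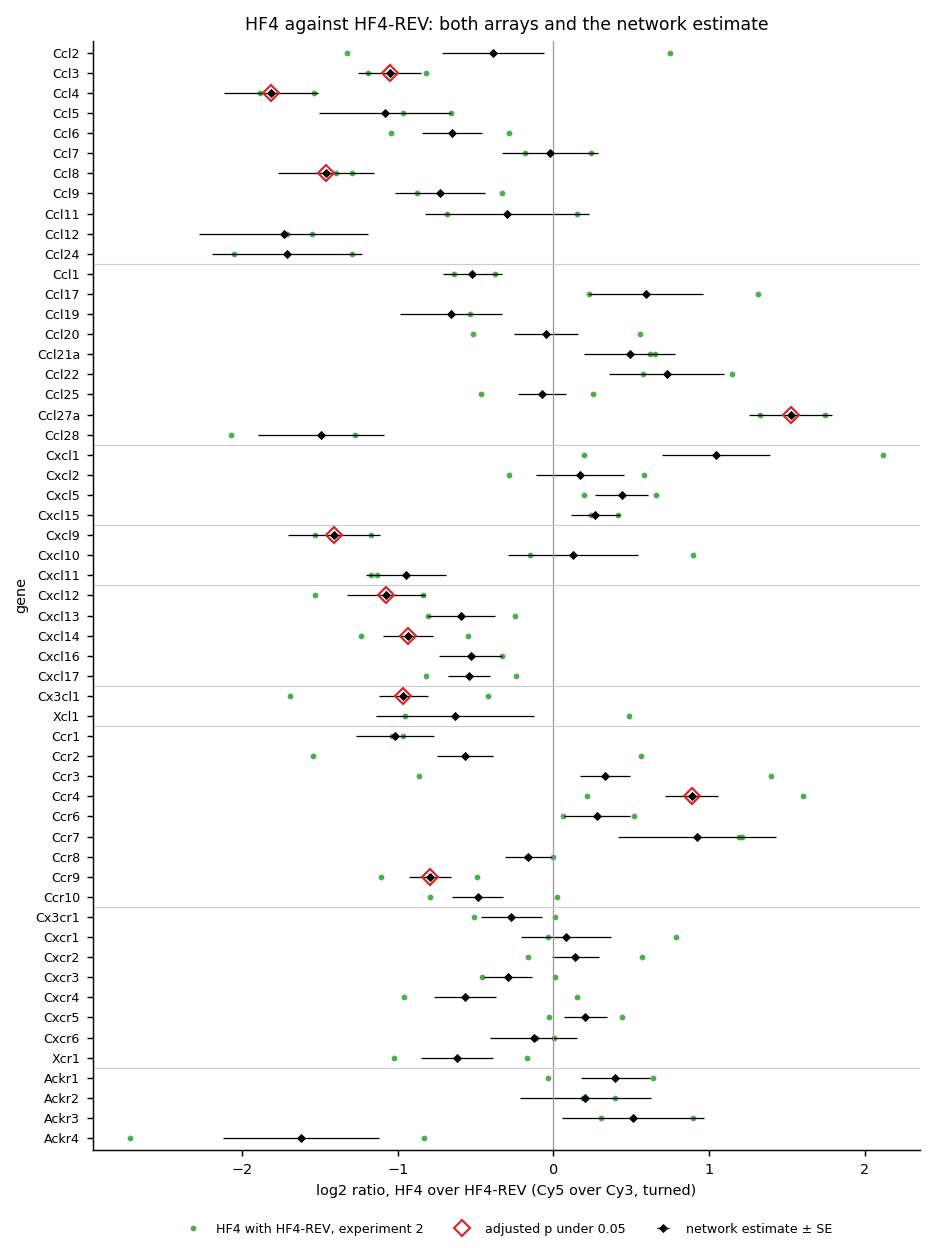
For each of the 55 genes the horizontal axis gives the log2 ratio of HF4 over HF4-REV on the 2 arrays (green points) and the network estimate ± SE (black diamonds), with red outlines on the 10 genes of adjusted p under 0.05. The network estimates of the inflammatory CC ligands are all left of 0 and those of the 4 neutrophil attractants all right of it, with single arrays of Ccl2, Ccl7, Ccl11 and Cxcl2 on the other side, and Ccl27a and Ccr4 are the called genes on the right.

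Marker lists differed in sign in HF4 against HF4-REV. Of 22 macrophage genes 19 were negative and 3 called (median -0.58, from C1qc at -2.81 to Lgals3 at 0.12). Medians were -0.49 for T cells, -0.51 for dendritic cells, -0.44 for endothelium, -0.40 for fibroblasts and mesothelium and -0.57 for adipocytes, with 14 of 15 adipocyte genes negative, and -0.19 for B cells. Positive medians were found for mast cells and eosinophils (0.29, 8 of 10 positive), lymphatic vessels and lymph node stroma (0.13, 7 of 10), epididymis (0.66, 12 of 16) and, with 6 of 12 positive, neutrophils (0.09). The germ cell genes were all positive, 21 of 24 called, with a median of 3.78. The part of each in the chemokine ratios was not tested. Of 32 chemokine signalling genes 24 were negative and 3 called (median -0.45), between Rac1 (-1.39) and Grk6 (0.63). Of 25 inducers 16 were negative and 3 called (median -0.24), with Ifng lowest at -2.47 and Il6 highest at 1.17, and of 17 further chemoattractant genes 11 were negative and none called (median -0.17), between Rarres2 (-1.65) and Cmtm3 (0.37).

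The number of calls in HF4 against HF4-REV depended on the scaling and on the design of the fit. It was 2 after scale normalization (4.94% of all features), 0 after quantile normalization (0.594%), 25 without the STD value of experiment 2 (21.3%), 24 without the experiment block (27.9%) and 7 with each pairing as a unit (13% of all features), 6 of them shared with the 10. Leaving out 1 array gave 8 to 19, the 19 without replicate 2 of HF4 with HF4-REV. Without replicate 1 of that pairing the calls of Ccl8, Ccr4 (at -0.01), Cxcl9, Cxcl12 and Cxcl14 were lost. Without replicate 2 that of Cx3cl1 (at -0.46) was lost.

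No member was called between the diets in the other generations. In HF1 against HF1-REV no feature was called (0%) and the median over the genes was near 0. Ccr9 was highest at 0.84 ± 0.15 (SE, adjusted p = 0.408), with arrays at 1.03 and 0.65. It passed without replicate 2 of HF1 with HF1-REV (1.49, adjusted p = 0.0239) and with each pairing as a unit (0.84, adjusted p = 0.0414). Next came Ccr2 (0.81 ± 0.20) and Ccl7 (0.56), and Ccl5 (-0.74), Ccl27a (-0.51) and Cxcr5 (-0.45) were lowest. The Cxcr5 arrays read -1.39 and 0.49, on opposite sides of 0. In HF3 against HF3-REV 0.0874% of all features were called and no member was. Cxcr5, the receptor that leads B cells to Cxcl13, came closest at -1.26 ± 0.14 (95% interval -1.60 to -0.92, adjusted p = 0.0523), with arrays at -1.11 and -1.38. It passed after scale normalization (adjusted p = 0.036), quantile normalization (0.0327) and with each pairing as a unit (0.0135). Leaving out 1 of 7 arrays also brought Cxcr5 past the threshold, namely either array of HF3 with HF3-REV, either of HF0 with STD in experiment 1, replicate 1 of HF4 with STD or of HF4 with HF0 in experiment 1, or replicate 2 of HF0 with STD in experiment 2 (adjusted p of 0.00845 to 0.049). Ccl24 (-0.90) and Ackr2 (-0.81) were the next lowest, and Ccr7 (0.91 ± 0.51), Cxcl10 (0.87) and Ccl22 (0.78) the highest.

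Whether the diet ratio differed between generations was tested as a difference of differences, with no feature called in any of the 3 comparisons (0%). The lowest adjusted p among the genes was 0.0765 for Ccr9 in HF4 minus HF1, 0.0798 for Cxcr5 in HF4 minus HF3 and 0.453 for Cxcr5 in HF3 minus HF1. The calls in HF4 against HF4-REV are therefore not shown to differ from the other generations. At an unadjusted p of 0.05, 17 of 55 genes passed in HF4 minus HF1 (30.9%, against 18.4% of all features) and 14 in HF4 minus HF3 (25.5%, against 16.7%).

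Chemokine genes lie in clusters on their chromosomes, and the signs of the network estimates were also counted by cluster. The chromosome 11 genes Ccl2, Ccl7, Ccl11, Ccl12, Ccl8 and Ccl1 were all positive in HF0 against STD (median 0.49) and all negative in HF4 against HF4-REV (median -0.45). Their direct HF0 over STD means in experiment 1 were -0.42, -0.91, -0.26, -1.38, -0.69 and 0.08 in this order. The direct HF4 over HF4-REV mean of Ccl7 was 0.03. A second group on chromosome 11, Ccl5, Ccl9, Ccl6, Ccl3 and Ccl4, had 3 positive and 2 negative estimates in HF0 against STD and 5 negative ones in HF4 against HF4-REV (median -1.05). Cxcl5, Cxcl15, Cxcl1 and Cxcl2 on chromosome 5 had positive network estimates in both, the lowest in HF0 against STD being Cxcl15 at 0.003. Their direct HF0 over STD means in experiment 1 were 0.26, -0.11, -0.53 and -1.18 in this order. The 6 receptor genes Ccr9, Cxcr6, Xcr1, Ccr1, Ccr3 and Ccr2 on chromosome 9 were split 3 to 3 in HF0 against STD and 1 to 5 in HF4 against HF4-REV.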

How the data were processed

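The authors deposited 1 table of log ratios, read here as log2, for 25344 probes on 34 arrays. For the log base, numerator dye, background correction and normalization the sources used here give no statement. A log of base 2 fits a 16-bit scanner, since base 10 would allow at most 4.82 and the highest value is 7.99. Each array was centred on its median and turned so that the group named first was on top. Of the probes 21082 had 1 symbol (20456 updated through the gene ID), 30 several and 4232 none; probes of a gene were averaged, which gave 22879 features. Only Cxcl12 had 2 probes among the members, and a probe shared by Art3 and Cxcl10 was left out.

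Group values were estimated within each experiment by least squares with a dye term, and the 12 group values of 8 groups entered 1 limma 3.58.1 fit (R 4.3.3) blocked on experiment (residual degrees of freedom 3, prior degrees 3.16). Each group value entered as 1 number, so the misfit of the arrays around it within an experiment is not a term of the SE. P-values were adjusted by Benjamini-Hochberg over all features, with a threshold of 0.05. The labels give a day for each array without saying what it marks; experiment 1 has a single day. STD, HF0, HF3 and HF4 have n = 2 experiments; HF1 and the REV groups have 1, with the spread of the other groups assumed. Nothing says that the RNA samples came from separate animals, so p-values measure only the spread between these samples, which may be technical; the number of arrays limits the precision. The fit was also run on simulated arrays whose ratios added up around every loop, apart from little noise. That run does not test the fit on open loops like those of experiment 1. Figures were drawn with Python 3.11.15 and matplotlib 3.10.9.

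In each comparison the 3 most positive and 3 most negative genes and every called one are named, in HF0 against STD also the ligand and receptor pairs, and of each other gene list its most extreme genes. Per-array values of further genes, and the genes above 1, were picked after their values were seen. Members, roles and lists were chosen with earlier results of these data known. Alternatives were other normalizations, experiments or the STD value of experiment 2 left out, each label day of HF0 with STD, no block, the prior, a variation filter and each array left out; each pairing as a unit was added after seeing the data, because the loops of experiment 1 did not close.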

Additional observations from a re-analysis of the deposited data

Results flagged for a closer look

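On the 4 arrays of HF0 with STD in experiment 2, Ackr2 read 1.60 on replicate 1 and 2.00 to 2.07 on the others. The gap to its nearest neighbour was 0.857 of the whole range, above Dixon's critical value for 4 samples. All 4 values were positive. Named genes were tested in this group only, 18 in number, and chance flags about 1 in 20.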

How the results depend on the processing

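Under the settings other than leaving out single arrays, the median over the genes lay between -0.40 and -0.27 in HF4 against HF4-REV, 0.036 and 0.49 (experiment 2 alone) in HF3 against STD, -0.023 (without the STD value of experiment 2) and 0.28 in HF0 against STD, -0.089 and 0.25 in HF4 against STD, and -0.19 and 0.11 in the other 8 comparisons. The arrays of HF0 with STD in experiment 2 fell on 2 of the days the labels give, with medians of 0.28 and 0.25. Without the STD value of experiment 2, HF0 against STD also turned sign for Ccl5 (-0.35), Ccl19 (-0.31), Ccr7 (-0.27), Cxcr4 (-0.02) and Cxcl13 (-0.0105). The called genes then numbered 2 of 55 in HF4 against STD (898 of 22879 features) and 2 in HF3 against HF1 (450 features). They numbered 5 in HF4 against HF1 (1372), 3 in HF3 against HF3-REV (886) and 25 in HF4 against HF4-REV (4884, or 21.3%). Quantile normalization gave 0 in HF4 against HF0, in HF4 against HF1 (376 features) and in HF4 against HF4-REV (136), and 1 in HF3 against HF3-REV (210). Scale normalization gave 1 in HF3 against HF3-REV (248 features) and 2 in HF4 against HF4-REV (1131). Without the experiment block there were 4 in HF4 against HF1 (1638 features), 1 in HF3 against HF3-REV (1219) and 24 in HF4 against HF4-REV (6387). With each pairing as a unit, chosen after seeing the data, there was 1 each in HF1 against HF0 (0.721% of features) and HF3 against HF1 (0.691%). The same held for HF1 against HF1-REV (0.197%) and HF3 against HF3-REV (0.643%). That fit gave 8 in HF4 against HF1 (14.4%) and 7 in HF4 against HF4-REV (13%), and Ccl19 in HF0 against STD was at -0.13. Leaving out single arrays gave 0 to 1 called genes in HF4 against STD, HF4 against HF0 and HF4 against HF1, 0 to 2 in HF1 against HF1-REV and HF3 against HF3-REV, 8 to 19 in HF4 against HF4-REV, and 0 in the other 6 comparisons; Ccl19 (-0.0097 to 0.12) and Cxcr5 (-0.0221 to 0.17) in HF0 against STD, Cxcr5 in HF1 against HF1-REV (-1.21 to 0.31) and Ccr4 in HF4 against HF4-REV (-0.0071 to 1.79) changed sign. The cause of these changes was not tested.

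Counts over all features changed by more than 1.5 times as well. HF4 against STD, with 100, had 345 after scale and 0 after quantile normalization, 898 without the STD value of experiment 2, 656 without the block and 1168 with pairings as units. In the same order of settings, leaving out those that did not change it, HF3 against HF0 (0) had 141, 584, 66 and 1076, HF4 against HF1 (644) had 376, 1372, 1638 and 3290, HF3 against HF3-REV (20) had 248, 210, 886, 1219 and 147, and HF4 against HF4-REV (2552) had 1131, 136, 4884 and 6387. HF3 against HF1 (0) had 450, 45 and 158, HF1 against HF1-REV (0) had 8, 10 and 45, HF4 against HF3 (0) had 252 without the STD value, and with pairings as units HF4 against HF0 had 2294, HF1 against HF0 had 165 and HF0 against STD had 11. The test on features of above-median variation left 0 in HF3 against HF3-REV. Each array set its groups against each other directly. The labels give no shared replicate numbers by which arrays of different pairings could be paired further. The table holds no intensities, so no limit from signal over background can be given.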

Other observations

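A probe annotated to both Art3 and Cxcl10 was left out of the gene values. Relative to HF0 in experiment 2 it was at 1.73 in HF1, 1.56 in HF3, 0.18 in HF4, 1.91 in HF1-REV, 1.70 in HF3-REV, 2.11 in HF4-REV and 0.38 in STD. The probe of Cxcl10 alone was at -0.90, 0.15 and -0.02 in HF1, HF3 and HF4, at -0.71, -0.56 and -0.39 in their REV groups and at -0.59 in STD. HF0, HF4 and STD were the low groups of the shared probe, as they were for Ackr4 and Ccl28, and the Cxcl10 probe did not have that order.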
